A study of Mus musculus with 14 samples.

Results

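Small mitochondrial assembly and import proteins were examined in the livers of mice fed krill powder. The group held 10 named genes: Pet100, Mtln, Cox17, Cox19, Romo1, Chchd2, Timm8b, Timm13, Tomm7 and Tomm22. Its members were all probe sets that the platform table lists with exactly 1 of these gene symbols, which gave 15 probe sets of the 45101 on the array, for 9 of the 10 genes and of 18193 genes measured in this way. Chchd2 had 0 such probe sets and is not analysed here. The genes had been selected on their measured difference in signal between krill and control livers in these same arrays, so their values are given as a description, with no test.

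All 14 animals were male mice of the inbred strain CBA/J, housed singly and given 84 kcal weekly of a purified diet of the AIN93M type. From 2 months of age, 7 mice stayed on the control diet and 7 received a diet with krill powder extract, and livers were collected after 3 months of feeding, at 5 months of age. The diets held equal total protein and lipid but different amino acids and fatty acids. Total RNA of 1 mouse was hybridised to each Affymetrix array, so that the spread within a diet joins mice and arrays, and the number of arrays limits the precision.

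Most mitochondrial proteins are made in the cytosol and enter the organelle through the TOM complex of the outer membrane. From there the TIM23 complex passes proteins with a cleavable targeting sequence inward, small TIM chaperones escort hydrophobic carriers across the intermembrane space, and the MIA40 relay traps small cysteine-rich proteins by oxidising them. Cytochrome c oxidase, the last complex of the respiratory chain, needs dedicated factors for copper delivery and for joining its subunits. Liver cells are rich in mitochondria.

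Promoter sequence for 7 of the 9 measured genes was found in the RefSeq table of mouse build GRCm38.p6, in which each promoter runs from 250 bases before the annotated start to 50 after it. Cox17 and Tomm7 were not matched. The stretches below belong to the 4 genes in which every krill array lay above every control array, and to Romo1, and are shown so that these genes can be set beside the values below; Romo1 has a neighbouring gene that starts close by on the opposite strand, as does Timm8b. Each stops at the last base before the start and is written 5′ to 3′ on the strand of the gene, with any match to the motifs named next in capitals. For Timm8b and Romo1 only the bases between the starts of both neighbours are shown.
Pet100, chr8:3621301-3621550, plus strand: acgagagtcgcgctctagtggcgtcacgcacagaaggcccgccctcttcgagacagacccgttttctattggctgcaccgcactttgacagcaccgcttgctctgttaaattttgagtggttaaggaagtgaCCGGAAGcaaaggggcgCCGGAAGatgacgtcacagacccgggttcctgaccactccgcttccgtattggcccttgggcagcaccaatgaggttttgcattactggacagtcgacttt
Mtln, chr2:127792489-127792738, minus strand: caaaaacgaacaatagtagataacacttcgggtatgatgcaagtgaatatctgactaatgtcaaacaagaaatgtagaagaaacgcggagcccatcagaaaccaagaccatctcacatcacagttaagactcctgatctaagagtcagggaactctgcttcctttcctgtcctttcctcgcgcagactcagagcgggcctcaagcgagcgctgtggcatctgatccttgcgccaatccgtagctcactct
Timm8b, chr9:50603850-50603900, plus strand: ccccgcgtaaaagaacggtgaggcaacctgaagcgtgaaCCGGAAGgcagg
Timm13, chr10:80900970-80901219, minus strand: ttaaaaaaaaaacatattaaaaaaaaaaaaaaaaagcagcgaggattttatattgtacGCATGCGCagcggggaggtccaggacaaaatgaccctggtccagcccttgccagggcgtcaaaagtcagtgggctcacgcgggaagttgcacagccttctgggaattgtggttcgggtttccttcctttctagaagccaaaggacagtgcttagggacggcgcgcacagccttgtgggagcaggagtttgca
Romo1, chr2:156144187-156144232, plus strand: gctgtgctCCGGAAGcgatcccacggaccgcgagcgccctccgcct

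The motifs searched, read on both strands, were GCGCATGC for NRF1, CCGGAAGT for ETS factors such as GABPA, and AAGATGGC for YY1, which are known regulators of nuclear genes for mitochondrial proteins. NRF1's letters stood in 1 of the 7 promoters, that of Timm13, 192 bases before the start, and in 2.71% of all 32851 promoters. The ETS letters stood in 1 of 7, that of Romo1, 60 bases before the start and so outside the 46 bases printed, and in 3.89% of all promoters. YY1's letters were in 0 of 7 and in 2.75% of all. The shorter core CCGGAAG, which is contained in the ETS letters and was chosen after the sequences were seen, stood in 4 of 7 promoters (Romo1, Pet100, Timm8b and Tomm22) and in 8.86% of all. It is the string in capitals in 3 of the 5 printed stretches, those of Pet100, Timm8b and Romo1. In Timm8b it began 12 bases before the start, and Pet100 held it at 118 and at 101 bases before the start. GC content of the 7 promoters had a median of 56.7% (range 49.0% to 66.3%), against a median of 52.7% over all promoters. A match is a string of letters, and binding was not measured.

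Technical measures of the arrays differed between the diets and stand beside all results below. The hybridisation spike-ins, bacterial transcripts added in fixed amount, had a mean log2 signal of 12.92 ± 0.217 (SD, n = 7) on control arrays and of 13.71 ± 0.619 (SD, n = 7) on those of the krill diet (two-sided exact permutation test, p = 0.0128, adjusted p = 0.0160 over 5 measures). Krill replicates 2, 4, 5 and 7 lay above all control arrays in this measure, while the other 3 krill arrays lay at 12.92 to 13.17 (control, 12.59 to 13.22). The ratio of 3′ to 5′ signal of pyruvate carboxylase, a measure of RNA shortening, had a mean of 6.55 ± 2.34 (SD, n = 7) under the control diet and of 18.3 ± 5.69 (SD, n = 7) under krill, with no overlap (two-sided exact permutation test, p = 0.000583, the lowest value possible with 7 arrays a diet, adjusted p = 0.00146). Krill replicate 6, an array of low hybridisation spike-in signal, had the highest ratio, 25.7. The same ratio of actin lay between 1.78 and 2.44 on control and between 2.48 and 3.79 on krill arrays, also without overlap. That of GAPDH was 0.806 ± 0.0497 (SD, n = 7) against 0.964 ± 0.330 (SD, n = 7) and did not pass (two-sided exact permutation test, p = 0.198). The 3′/5′ index, the mean log2 of the actin and pyruvate carboxylase ratios, was at most 2.28 on control and at least 2.44 on krill arrays. No gene of the 11343 tested passed limma's adjusted threshold once this 3′/5′ index was a covariate, although 1877 had an unadjusted p under 0.05. Because the index did not overlap between the diets, that fit can hardly tell diet from index, and nothing is concluded from it. The part of these measures in the results was not tested. All 8 hepatocyte markers were above the signal filter, of which 5 rose and 1 fell, with a summed signal of 333333 to 483374 in control and 437948 to 798421 in krill arrays. Of the Kupffer cell markers 5 of 6 were above it, 2 rose and 1 fell, with sums of 6829 to 9164 and of 8130.2 to 16112. Of the endothelial markers 5 of 6 were above it, 1 rose and 1 fell (8076 to 9326, and 4416 to 12969.6), and of the stellate cell markers 5 of 5, 2 rose and 1 fell (12329.6 to 18593, and 12514 to 18301). The other 6 marker lists had at most 1 gene above the filter, of which 1 muscle marker rose, and the 5 lymphocyte markers on the array were all below it. In whole liver, a change in the share of a cell type and a change in RNA per cell cannot be told apart.

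Of the 9 genes, 7 passed the threshold of adjusted p under 0.05 as higher in krill livers and 0 as lower, beside 23.7% of all 11343 tested genes higher and 25.3% lower. Those that did not pass were Cox19 and Tomm22, the members just outside; Romo1 was the member nearest to the threshold inside it. In 4 of the 9, every krill array lay above every control array, beside 6.56% of all genes. Of the 15 probe sets, 11 passed as higher and 0 as lower, beside 16% and 12.5% of all 45037 probe sets, and 5 did not overlap, beside 2.98%. Because this same contrast chose the genes, nothing is read from these counts. Signal is on the linear scale of the deposited table, and log2 changes are krill minus control in log2(signal + 16), given with limma's standard error. Probe sets differ in brightness for reasons other than transcript amount, so levels are compared only within a probe set.

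Pet100 and Mtln, both very small proteins of the mitochondrial inner membrane, had the highest log2 changes of the group. Pet100, a chaperone for the assembly of cytochrome c oxidase, had a signal of 1361, 1983 and 3196 (lowest, median and highest of 7) in control livers and of 4157, 14753 and 30727 in krill livers. The diets did not overlap, and krill replicate 1 was lowest and replicate 2 highest among krill livers. The log2 change was 2.59 (SE 0.30), a 6.03-fold higher level, which ranked 15 among the 11343 genes. A dim Pet100 probe set (1429583_at), below the signal filter, gave 36.3, 63.1 and 132 in control and 13.8, 67.4 and 163 in krill livers, with full overlap.

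Mtln encodes mitoregulin, a micropeptide that binds cardiolipin and is known to favour fatty acid oxidation and respiratory supercomplexes. Its signal was 1269, 2271 and 3356 in control livers and 3644, 15240.2 and 29502 in krill livers. The lowest krill liver was again replicate 1 and the highest replicate 2, and the diets did not overlap. The log2 change was 2.49 (SE 0.33), 5.62-fold, at rank 21. The spread among krill livers was wide, with a highest signal 8.10 times the lowest, against 7.39 times for Pet100.

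Log2 changes of the other assembly factors were smaller. Cox17, the copper chaperone that hands copper on for cytochrome c oxidase, had a signal of 5494, 5843 and 7530.1 in control livers and of 6340.3, 10006 and 14601 in krill livers. In 5 of 7 krill livers the signal lay above all controls, but only 1 of these was among the 3 arrays with low spike-in signal. The log2 change was 0.65 (SE 0.18) and 0.23 without krill replicates 2, 4, 5 and 7, where Cox17 was no longer past the threshold. A dim Cox17 probe set (1434871_at) lay below the signal filter, at 5.79 to 13.0 in control and 5.84 to 43.5 in krill livers. Cox19, a twin CX9C protein linked to copper handling in the intermembrane space, had a signal of 1663, 2226 and 2637 in control and of 2040.4, 2923 and 4041 in krill livers. The diets overlapped, with 4 of 7 krill livers above all controls. Its highest krill liver was replicate 6 and its lowest replicate 7, and the log2 change was 0.41 (SE 0.17).

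Among the import proteins, Timm8b and Timm13 were higher without overlap. Timm8b, which pairs with Timm13 in the chaperone complex that carries Timm23 and similar proteins, had a signal of 2415, 3876 and 5372 in control livers and of 6791, 13522 and 27436 in krill livers. Its log2 change was 1.94 (SE 0.25), 3.83-fold, at rank 101. Timm13 had a signal of 4406, 5533 and 6381 in control and of 6959.7, 8138 and 13954 in krill livers. For both partners the lowest krill liver, replicate 1, still lay above the highest control liver, replicate 5. The log2 change of Timm13 was 0.65 (SE 0.17), 1.56-fold, at rank 2684. The log2 changes of these partners therefore differed in size, though they come from probe sets whose response to dose is not known to be equal.

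Romo1, a small inner membrane protein tied to the TIM23 complex and to reactive oxygen species, had a signal of 5092, 5749 and 7744 in control livers and of 5922, 8918 and 15731 in krill livers. The diets overlapped, and the log2 change was 0.58 (SE 0.19). Without krill replicates 2, 4, 5 and 7 it was 0.29, no longer past the threshold.

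Tomm7, a small regulatory subunit of the TOM complex, was measured by 4 probe sets above the filter. The brightest (1428215_x_at) gave 2502, 3478 and 5217 in control and 4644, 8185 and 14793 in krill livers. In 6 of 7 krill livers it lay above all controls, and the log2 change was 1.26 (SE 0.23), 2.39-fold. The other 3 probe sets gave log2 changes of 1.01 to 2.23, of which the dimmest (1428216_s_at, 8.68 to 100.1 in control and 127 to 483 in krill livers) had no overlap. This dimmest probe set had a mean of 60.1 in control and of 323 in krill livers. The Pet100 probe set below the filter had a control mean of 71.7, so 1428216_s_at passed the filter only through its krill arrays. Tomm22, the central receptor of the complex, had a signal of 2170, 2318 and 2682 in control and of 2454, 2639 and 3685 in krill livers, with a log2 change of 0.31 (SE 0.14). Only 3 of 7 krill livers lay above all controls in that probe set, and 5 of 7 in the second (1434420_x_at, log2 change 0.61, SE 0.21).

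**Figure D1:**
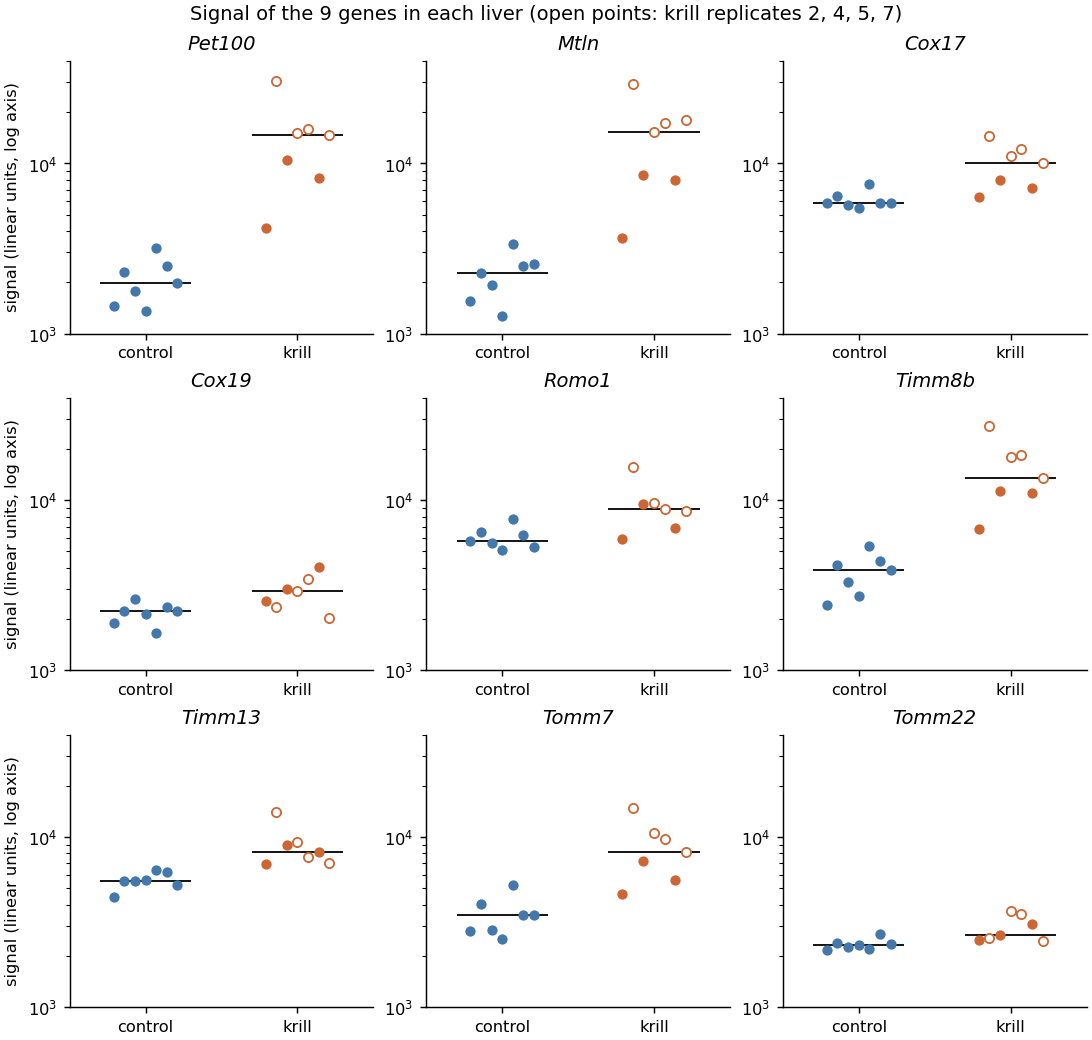
Signal of the brightest probe set of each of the 9 genes in 7 control and 7 krill livers, on a log axis. A line marks each diet's median. Open points are krill replicates 2, 4, 5 and 7, whose hybridisation spike-in signal lay above all control arrays. Points of Pet100, Mtln, Timm8b and Timm13 do not overlap between diets, while those of Cox19 and Tomm22 do.

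The same livers stood at the ends of most genes. Krill replicate 2 was the highest krill liver in 7 of the 9 genes and replicate 1 the lowest in 7. Control replicate 5 was the highest control in 7 of 9, and replicate 4 the lowest in 5. The median over the 9 genes of log2 signal above the control mean ran from −0.28 to 0.37 in control livers and from 0.34 to 1.40 in krill livers, so control replicate 5 overlapped krill replicate 1. Krill replicate 1 exceeded every control in 4 of 9 genes, and krill replicates 4 and 5 in 9 of 9. The contrast of the diets chose these genes, and no share of all genes is given for single arrays. Nothing is therefore read from these counts.

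Size depended on the treatment of the arrays. Without krill replicates 2, 4, 5 and 7 the log2 change was 1.82 for Pet100, 1.57 for Mtln, 1.38 for Timm8b and 0.76 for Tomm7. In each of Pet100, Mtln, Timm8b and Timm13 the 3 remaining krill arrays all lay above every control, beside 10.9% of all genes. For these 4 genes this follows from their lack of overlap in the full comparison and adds nothing to it. Of the 9 genes 6 passed the threshold as higher without those arrays, with Cox17 and Romo1 no longer among them and Cox19 now included, beside 12.7% of all genes, and nothing is read from these counts either. Scaling arrays on the spike-ins moved the median of all genes from 0.05 to −0.71. On that scale Pet100 was at 1.80, Mtln at 1.70, Timm8b at 1.15 and Tomm7 at 0.47. Cox17 was at −0.14, Timm13 at −0.14, Romo1 at −0.21, Cox19 at −0.38 and Tomm22 at −0.48, each with the opposite sign. This scaling multiplies each array by 1 factor, so it lowers all bright genes by about 0.79, the spike-in difference between the diets. Their place above the median of all genes is thus carried over from the full comparison and adds nothing to it. Centring each array on its median moved all genes to −0.35, with Cox19 at 0.00 and Tomm22 at −0.10. A term for the 3′/5′ index gave values of 1.78 (SE 0.63) for Pet100, 1.37 (SE 0.66) for Mtln and 1.48 (SE 0.53) for Timm8b. Cox19 was at 0.78 (SE 0.35), Tomm7 at 0.77 (SE 0.48) and Timm13 at 0.70 (SE 0.37). Tomm22 was at 0.40 (SE 0.31), Romo1 at 0.28 (SE 0.40) and Cox17 at 0.14 (SE 0.38), all for the brightest probe sets. The index did not overlap between the diets, so nothing is concluded from these values.

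**Figure D2:**
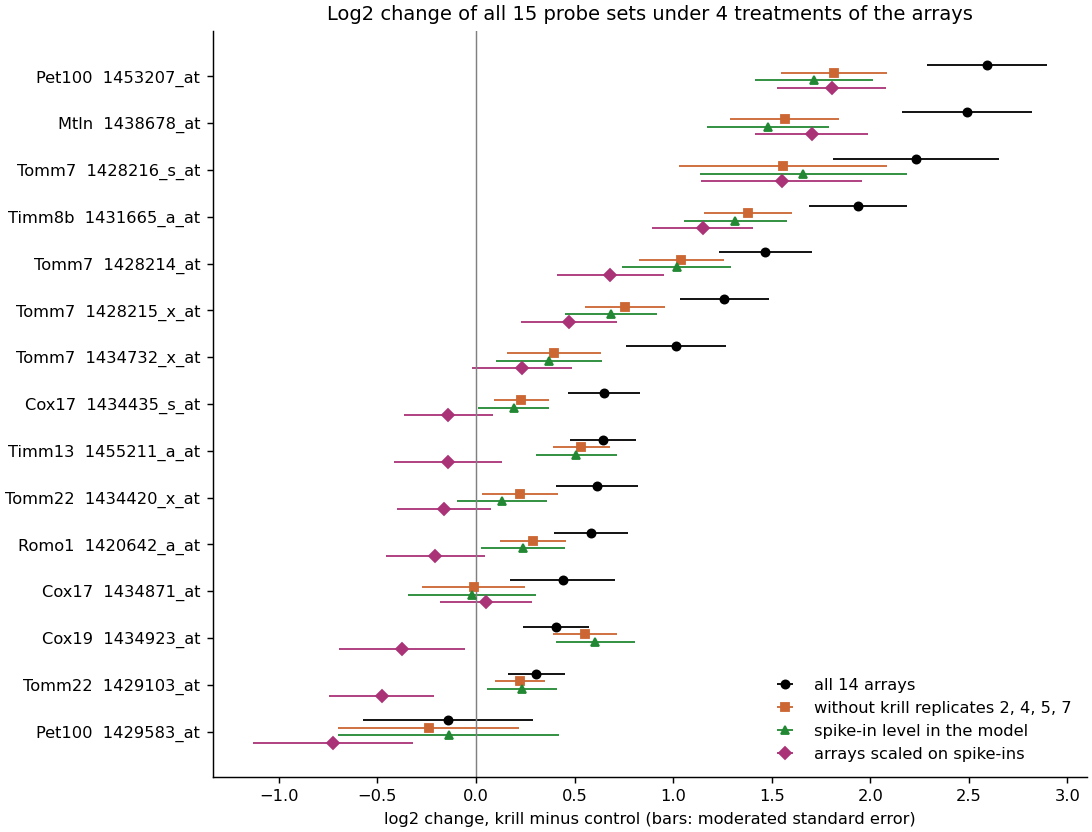
Log2 change (krill minus control) of all 15 probe sets, with bars for limma's standard error, under 4 treatments: all 14 arrays, krill replicates 2, 4, 5 and 7 left out, a term for spike-in level, and arrays scaled on the spike-ins. Pet100 1453207_at, Mtln, Timm8b and the 4 Tomm7 probe sets stay right of 0 under these 4 treatments, while Cox17 1434435_s_at, Cox19, Romo1, Timm13 and both Tomm22 probe sets lie left of 0 with spike-in scaling.

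Spread within the control diet was not used to choose the genes. There, high correlations from mouse to mouse were frequent among 6 of them, picked out from these same r values. Pearson's r of log2 signal over the 7 control livers had a median of 0.588 over the 36 pairs of genes (range −0.686 to 0.973), against a median of 0.0055 over all pairs of the 11343 genes. Of the 36 pairs 33.3% had an r over 0.8, beside 3.34% of all pairs. All points share an array's scaling and RNA quality. The pairs of all genes were not matched to the group in their change between diets or their response to RNA quality. High r is therefore not read as particular to this group. Pet100 and Timm8b had r = 0.973 (exact permutation test, two-sided, p = 0.000794, adjusted p = 0.0143 over the 36 pairs) and Spearman's rho = 0.964 (exact p = 0.00278, adjusted p = 0.0633), and r was 0.972 without the 2 livers farthest from the Pet100 median. Pet100 and Mtln had r = 0.948 (exact p = 0.00218, adjusted p = 0.0190) and rho = 0.893 (exact p = 0.0123, adjusted p = 0.0633), and r was 0.869 without the 2 farthest. Cox17 and Romo1 had r = 0.935 (exact p = 0.00278, adjusted p = 0.0190) and rho = 0.893 (exact p = 0.0123, adjusted p = 0.0633), and r fell to 0.663 without the 2 farthest, so that relation rests partly on those livers. Other pairs of the 6 genes fell further without the 2 livers farthest from the median of the gene named first. Mtln and Romo1, with the lowest r of these pairs, went from 0.735 to 0.092, and Pet100 and Cox17 from 0.82 to 0.464. In all, 11 of 36 pairs had an adjusted p under 0.05 by Pearson's r, and by Spearman's rho 0 of 36 did. Cox19 had a negative r with 7 of the other genes, the lowest with Cox17 (r = −0.686, exact p = 0.101, adjusted p = 0.202), which did not pass and was −0.062 without the 2 farthest livers. The 36 pairs were also computed over the krill livers, which fell into 3 arrays of low and 4 of high spike-in signal. Because each set is too small for a correlation, no r is given there. Adjusted over all 72 pairs, 11 control pairs passed as well.

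**Figure D3:**
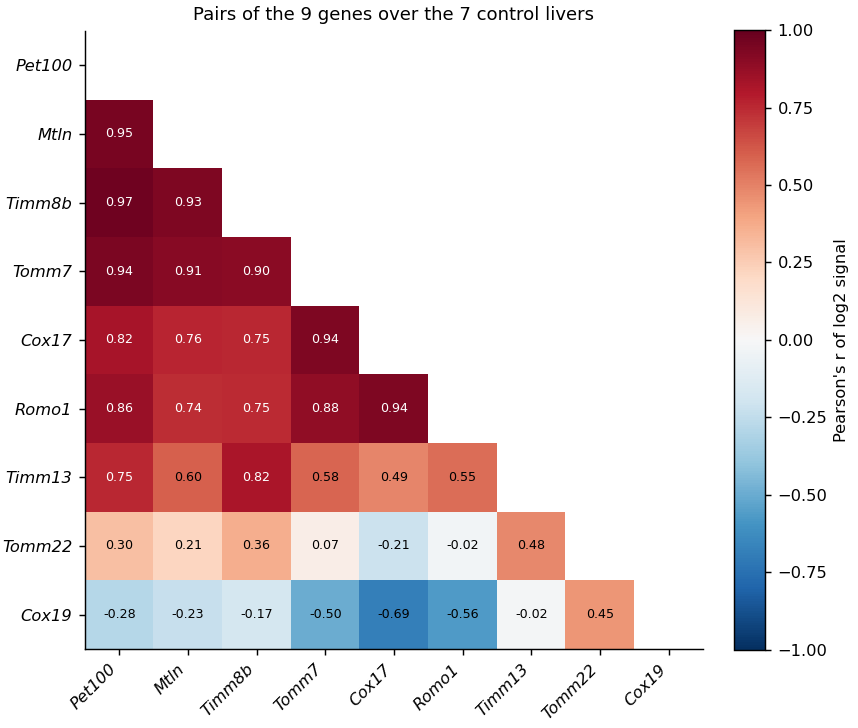
Pearson's r of log2 signal for the 36 pairs of the 9 genes over the 7 control livers, from −1 (blue) to 1 (red). Pet100, Mtln, Timm8b, Tomm7, Cox17 and Romo1 form a block with r from 0.74 (Mtln and Romo1) to 0.97 (Pet100 and Timm8b). Part of this block falls without the 2 farthest livers, Mtln and Romo1 to 0.092. Cox19 has r below 0 with 7 of 8 partners.

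The genes most like the group were found from deviations from the diet means over all 14 arrays, against the mean of the standardised deviations of the 9 genes. The 5 nearest were Mydgf (r = 0.974), Rbks (0.973), Cetn3 (0.972), Haus7 (0.971) and Mrpl57 (0.970). These r values describe likeness only and pool the krill arrays of both spike-in sets. Over the 7 control arrays alone they were lower, from 0.891 (Rbks) to 0.950 (Mrpl57). Mrpl57, a protein of the mitochondrial ribosome, rose with a log2 change of 1.61 (SE 0.23), and Cetn3, a centrosome protein, with one of 2.09 (SE 0.28), both past limma's adjusted threshold.

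Timm8b and Sdhd, a membrane anchor subunit of succinate dehydrogenase, start 51 bases apart on opposite strands, the stretch printed above. Sdhd (1428235_at) had a signal of 10101, 11138 and 12565 in control and of 2382, 5689 and 10142 in krill livers, the opposite order to Timm8b, and krill replicate 1 was the only krill liver inside the control range. It fell by 1.00 on the log2 scale (SE 0.25, limma adjusted p = 0.00393). The log2 change of Sdhd was −0.31 when krill replicates 2, 4, 5 and 7 were left out (adjusted p = 0.0698), with a term for spike-in level −0.24 (adjusted p = 0.492), and with the 3′/5′ index its sign turned. A second Sdhd probe set (1437489_x_at) gave −0.21 (adjusted p = 0.425). Romo1 and Nfs1, the cysteine desulfurase of iron-sulfur cluster synthesis, start 46 bases apart, and Nfs1 was at 0.13 (SE 0.19, adjusted p = 0.591), turning to −0.28 with centring and −0.66 with spike-in scaling. Nfs1 rose by 0.41 (adjusted p = 0.0277) once krill replicates 2, 4, 5 and 7 were left out, and leaving out 1 array gave 0.054 to 0.29, with krill replicates 3, 6 and 7 each moving it by over 1.5 times. The promoter window of Pet100 overlaps that of Xab2, a splicing and DNA repair factor. Its brightest probe set gave 0.092 (adjusted p = 0.818), with the sign turned by centring, by spike-in scaling and by leaving out the 4 krill arrays, while 1436886_x_at fell by 1.83 (adjusted p = 0.00148) and 1448278_at fell by 1.34 (adjusted p = 0.0170), so the probe sets disagreed.

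**Figure D4:**
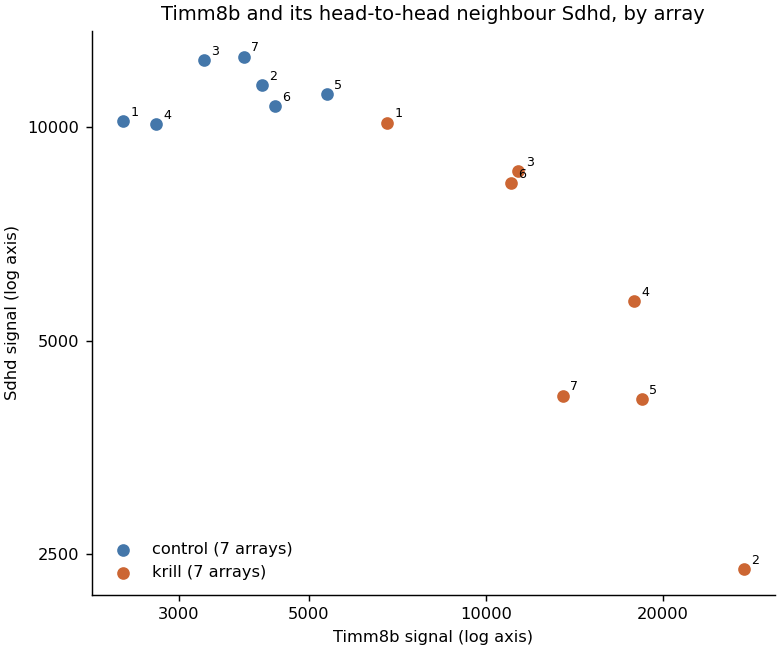
Signal of Sdhd 1428235_at against Timm8b 1431665_a_at in each of the 14 arrays, numbered by replicate within each diet, both axes on a log scale. Krill arrays lie to the right of all control arrays in Timm8b, and Sdhd is lowest in krill replicate 2, at 2382, where Timm8b is highest.

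Genes of the rest of the machinery passed the threshold in both directions. Of 97 other genes written in 8 lists of import and assembly genes, 87 were tested. Of these 34 rose (39.1%, beside 23.7% of all genes), 24 fell (27.6%, beside 25.3%) and 29 did not pass, with a median log2 change of 0.15 against 0.05 over all genes. Without krill replicates 2, 4, 5 and 7, 29 rose and 15 fell, beside 1438 (12.7%) higher and 2251 lower of all 11343 genes. List counts given below without those arrays have this same background. The counts below leave out the 9 genes described above. All adjusted p-values here are limma's over 11343 genes. All calls named below were lost when the 3′/5′ index, which did not overlap between the diets, was a covariate. Calls of Dnajc15, Pam16, Ndufb7 and Chchd3 were also lost with centring and with spike-in scaling, those of Grpel1, Ndufa8 and Timm22 with spike-in scaling, and those of Tomm40, Hspa9, Lonp1 and Xpnpep3 with a term for spike-in level.

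In the TOM complex, 2 of 4 tested genes rose, 1 fell and 1 did not pass (median 0.47, or −0.31 with spike-in scaling). Tomm20, the receptor that reads targeting sequences, had a signal of 11319, 15350 and 21658 in control and of 21674, 59525 and 81830 in krill livers, without overlap. It rose by a log2 change of 1.61 (SE 0.27, adjusted p = 0.000138), and by 0.87 once the 4 krill arrays of high spike-in signal were left out. Tomm40, the channel itself, had 1131, 1403 and 1842 in control and 337, 653 and 991 in krill livers. It fell by 1.22 on the log2 scale (SE 0.23, adjusted p = 0.000369), and by 0.69 without the 4 krill arrays. Tomm40l, a second form of the channel, rose (0.93, SE 0.24, adjusted p = 0.00482), a call lost without those arrays (0.36, adjusted p = 0.246), with centring, with spike-in scaling, with a term for spike-in level and with the mean of its probe sets. Tomm70a, the receptor for carriers, was at 0.0068 (adjusted p = 0.979), with −0.075 to 0.16 when 1 array was left out.

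Of the 7 tested small TIM and TIM22 genes, 2 rose, 1 fell and 4 did not pass (median 0.41, or −0.35 with spike-in scaling). Timm22, the channel that inserts carriers into the inner membrane, had 627, 861 and 1047 in control and 1603, 2114 and 3686 in krill livers. It rose by 1.41 (SE 0.18, adjusted p = 2.83e-05). Timm29, its partner subunit, fell by 0.70 (adjusted p = 0.0174), a call lost without the 4 arrays (−0.32), with quantile normalization and with a term for spike-in level. Timm8a1, a relative of Timm8b, was just past the threshold (0.57, adjusted p = 0.0471), 17 of 28 alternatives ended the call, and spike-in scaling turned it to −0.22. The change was larger without the 4 krill arrays (0.97, adjusted p = 0.00328) and with a term for spike-in level (0.98, adjusted p = 0.0185). Timm9 (0.13), Timm10 (−0.20), Timm10b (0.43) and Agk (0.41) did not pass. With 1 array left out Timm9 ran from 0.027 to 0.25, Timm10 from −0.28 to −0.085 and Timm10b from 0.28 to 0.53, where it passed without krill replicate 1. Timm10b also passed with the mean of its probe sets, and Agk with quantile normalization (0.59). Timm10 was past the threshold as lower with spike-in scaling (−0.99) but was at 0.19 without krill replicates 2, 4, 5 and 7. Another Timm9 probe set was called lower. The sign of Timm9 turned with centring (−0.28), with spike-in scaling (−0.65) and with the mean of its probe sets.

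The TIM23 list had 5 of 11 tested genes higher, 4 lower and 2 not passing, and 4 higher and 1 lower without the 4 krill arrays. Grpel1, the nucleotide exchange factor of the import motor, rose by 1.13, Dnajc15 by 0.95 and Pam16 by 0.91, both co-chaperone subunits of that motor. Hspa9, the mitochondrial HSP70 that drives it, fell by 1.82 on the log2 scale (SE 0.42, adjusted p = 0.00182), and by 0.56 without the 4 krill arrays. Of 12 SAM and MICOS genes, 5 rose, 3 fell and 4 did not pass. Chchd6 rose by 1.79 and Micos13 by 1.73, both parts of the complex that shapes cristae, and Mtx3, an outer membrane sorting protein, fell by 1.49. Chchd3 rose by 0.98, but another of its probe sets was called in the opposite direction, and the sign turned with the mean of its probe sets.

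Among 18 tested genes of the MIA40 relay and its twin CX9C substrates, 8 rose, 3 fell and 7 did not pass (median 0.46, or −0.31 with spike-in scaling). Coa6, a copper factor of cytochrome c oxidase, had 2789, 3858 and 7944 in control and 9228, 31908 and 56713 in krill livers, and rose by 2.48 (SE 0.32, adjusted p = 2.85e-05). Chchd1, a mitochondrial ribosomal protein, rose by 2.08 (adjusted p = 3.12e-05), and Ndufa8 and Ndufb7, subunits of complex I, by 1.09 and 0.79.

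Cytochrome oxidase assembly factors split, with 6 of 18 higher, 6 lower and 6 not passing (median −0.076, or 0.016 without the 4 krill arrays). Cox15, which makes heme A, had 957, 1243 and 2176 in control and 131, 176 and 537 in krill livers, without overlap. It fell by 2.47 on the log2 scale (SE 0.29, adjusted p = 1.57e-05), and by 2.22 without the 4 krill arrays. Cox18, an insertase, fell by 1.60, and Sco2, a copper metallochaperone, fell by 1.58. Of the proteases 2 of 14 rose, 6 fell and 6 did not pass (median −0.51). Without the 4 krill arrays 1 rose and 3 fell, and the median was −0.085 against −0.037 over all genes. The protease median turned to 0.19 with a term for the 3′/5′ index. Immp1l, the inner membrane peptidase, rose by 2.01. Spg7, a subunit of the m-AAA protease, fell by 3.33 on the log2 scale. Its signal was 154, 548 and 738 in control and 8.88, 20.8 and 178 in krill livers, and the diets overlapped. Krill signals this dim have no known background, so the size of the Spg7 change is uncertain. Lonp1, the matrix protease, fell by 1.49 and Xpnpep3, an aminopeptidase, by 1.24. Of 9 tested small mitochondrial membrane proteins, 6 rose, 1 fell and 2 did not pass (median 1.00). Atp5md, a small subunit of ATP synthase, rose by 1.84, Uqcc2, an assembly factor of complex III, by 1.76, Smdt1, the small regulator of the calcium uniporter, by 1.73, and Smim4 by 1.53.

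**Figure D5:**
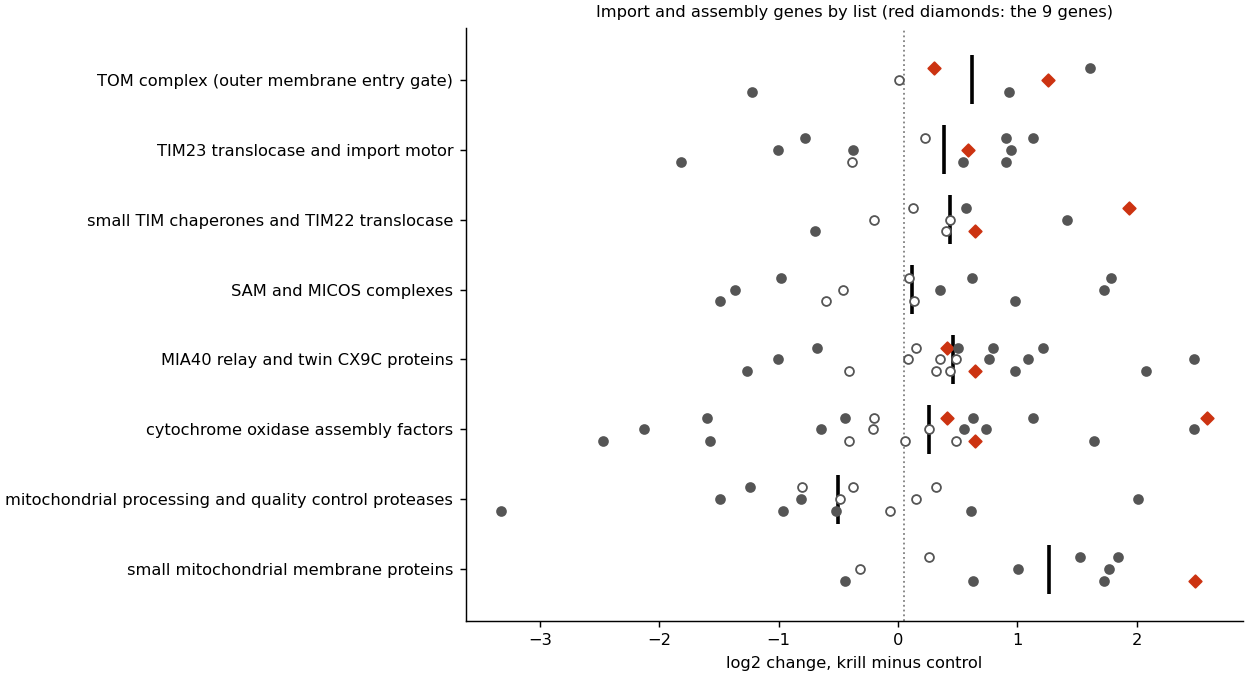
Log2 change, krill minus control, of the tested genes of 8 lists, 1 symbol per gene, with red diamonds for the 9 genes (no test shown), grey circles filled where limma's adjusted p was under 0.05, a bar at each list's median and a dotted line at the median of all genes (0.05). With the 9 genes included, the small mitochondrial membrane list has the highest median, 1.27, and the proteases the lowest, −0.51 (0.19 with a term for the 3′/5′ index). Spike-in scaling lowers the medians of all lists and of all genes by nearly the same amount. The median of all genes becomes −0.71. Those of the TOM, TIM23, small TIM, SAM and MICOS, MIA40 and cytochrome oxidase lists turn below 0.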

How the data were processed

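Liver RNA of 14 mice was measured on 1 array each. The deposited table holds a linear intensity for each probe set, made by the authors with MAS5, per the submitters' processing notes, with no version given in the sources used here. Every array had the same mean once 2% of probe sets at each end were left out, a scaling that lifts all values on an array whose RNA is dim. No scanner file or detection call was used.

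Signal was taken as log2(signal + 16), which understates folds of dim genes. The platform table lists 34945 probe sets with 1 gene, 932 with several and 9160 with none. Of all probe sets the upper 50% by mean over all arrays, 22519, were kept, and the brightest of a gene stood for it, leaving 11343 genes. Limma 3.58.1 in R 4.3.3 (eBayes with trend) fitted diet over all 14 arrays, with Benjamini-Hochberg adjustment over all genes and 0.05 as threshold; a second fit held all 45037 probe sets. Other steps used Python 3.11.15, numpy 2.4.6, pandas 2.3.3 and matplotlib 3.10.9. The fit was also run on simulated arrays with independent noise for each gene. These held no array or RNA quality effects, so that run says nothing on such effects here.

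Members and lists were chosen with earlier results of these data known. Named were all members, every tested gene of the TOM and small TIM lists, up to 4 genes with the smallest p past the threshold in each other list, and the 5 genes most like the members; neighbours were added for their position. The search for cysteine motifs in proteins was not run, as no protein table was used here. Alternatives changed the pseudocount (1 or 64), the scaling (quantile, centring, spike-ins), the covariate (spike-in level, 3′/5′ index), the filter (none, upper 30%), the summary of probe sets (mean), the trend, the array weights and a replicate block, or left out each array, or krill replicates 2, 4, 5 and 7 together. Spike-in levels came from 18 hybridisation probe sets. Pairs of members were correlated within each diet, and the choice to print only the control diet's r was made after both were seen.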

Additional observations from a re-analysis of the deposited data

Results flagged for a closer look

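In 11 of 108 groups of 7 arrays, 1 array lay farther from the other arrays than Dixon's 95% critical value of 0.568 allows, where chance gives about 1 in 20. Krill replicate 2 was the high array for Romo1 (signal 15731), Timm13 (13954), the second Tomm22 probe set 1434420_x_at (2068.8), Chchd3 (17204) and Uqcc2 (15722). Krill replicate 1 was the high array for Lonp1 (2673) and Spg7 (178.17), both lower in the other krill livers. Among controls, replicate 6 was high for Tomm22 1429103_at (2682.2), replicate 5 for Chchd1 (6992.2) and replicate 1 for Mtx3 (967.17). The 3′/5′ ratio of GAPDH was 1.6913 in krill replicate 7.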

How the results depend on the processing

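Of all genes 5566 passed the threshold, 3689 when krill replicates 2, 4, 5 and 7 were left out, 2018 with a term for spike-in level and 0 of 11343 in limma with the 3′/5′ index (1877 at an unadjusted p under 0.05), and 4361 to 6567 under the others. The 3′/5′ index did not overlap between the diets, so the fit with it can hardly tell diet from index. Leaving out 1 array gave 4837 to 6334. Higher genes made up 48.4% of the calls, 22.8% with centring, 6.84% with spike-in scaling and 39.0% without the 4 krill arrays. The median log2 change of the 9 members was 0.65, 0.24 with centring, −0.14 with spike-in scaling and 0.54 to 0.74 with 1 array left out. With spike-in scaling the sign turned for Cox17 1434435_s_at (−0.14), Cox19 (−0.38), Romo1 (−0.21), Timm13 (−0.14), Tomm22 1429103_at (−0.48) and Tomm22 1434420_x_at (−0.16), and the last was at −0.083 with the 3′/5′ index. Spike-in scaling lowers every bright gene by about 0.79, the spike-in difference between the diets, so log2 changes smaller than that turn sign by arithmetic. The cause of the spike-in difference was not tested. Members past the threshold as higher numbered 7 of 9 (beside 23.7% of all genes), 4 with centring (9.78%), 3 with spike-in scaling (3.51%), 3 with a term for spike-in level (6.99%), 6 without the 4 krill arrays (12.7%) and 0 with the 3′/5′ index (0%). Replicate numbers were shared only by name, since deviations of same-numbered arrays correlated at −0.0229 to 0.0996; with the replicate block 5430 genes passed and the members' median was 0.65. No detection calls were used, so the dim probe sets of Pet100 and Cox17, and the low krill signals of Spg7, have no known background.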
